A study of Ramazzottius varieornatus with 18 samples.

Results

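Juvenile 6d of the tardigrade Ramazzottius varieornatus was compared with Juvenile 5d, the preceding day, over all 14532 predicted transcripts of 13920 genes. The comparison used the 6 libraries whose labels give day 5 or day 6 of the juvenile stage, 3 for each day, of the 18 libraries in the series. The series covers Juvenile 2d to 7d with 3 libraries a day by its labels, which are used throughout, whereas the study's methods name days 3 to 7 for the juveniles. All 6 libraries came from whole animals of the strain YOKOZUNA-1, kept on agar plates with Chlorella as food, with no treatment and no manipulated gene. Age is the only difference between the groups that the labels give. The labels do not say how many animals entered a library or whether replicates came from separate cultures, so the p-values below measure the spread among these libraries, which may be technical. The RNA was that of the whole body, and a lower level could mean fewer cells of a type or less RNA per cell, which cannot be told apart. A whole-animal label has no defining tissue markers, and none were checked. Libraries were made from small amounts of mRNA by SMARTer amplification and carry no molecular identifiers. The estimated counts summed to 3383690 to 3580619 at Juvenile 5d and to 3059567 to 5095736 at Juvenile 6d, the highest total being that of Juvenile 6d replicate 1. Between 11628 and 11743 transcripts had a count in each library, and a count of 0 allows a CPM (counts scaled to a common library total) of 0.589 to 0.981, a limit that covers counting error only. Levels are given as TPM, a transcript abundance unit that corrects for coding length and library depth.

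Tardigrades belong to the Ecdysozoa, the animals that grow by shedding their cuticle. In arthropods a pulse of the steroid hormone ecdysone binds a heterodimer of the receptors EcR and USP/RXR, which switches on early genes and then a chain of nuclear receptors, and the hormone is made and broken down by cytochrome P450 enzymes. R. varieornatus also tolerates drying without a long preparation, and carries families of heat-soluble proteins in the cytosol (CAHS), outside the cell (SAHS) and in mitochondria (MAHS, LEAM), together with the chromatin protein Dsup and many antioxidant enzymes. Transcripts of these groups, of HOX genes and of argonautes, 113 in all, are described one group at a time after the libraries themselves. Their names are those that the study pairs with the transcript identifiers.

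The 3 libraries of Juvenile 6d differed from each other far more than the 3 of Juvenile 5d. Pearson's r of log2(TPM + 1), taken over the 10580 transcripts that averaged more than 1 TPM in the 6 libraries, was 0.960 to 0.966 between libraries of Juvenile 5d. At Juvenile 6d it was 0.905 between replicates 1 and 2, 0.840 between replicates 1 and 3 and 0.915 between replicates 2 and 3. The SD of log2(TPM + 1) was wider at Juvenile 6d in 8701 of these transcripts (82.2%), and its median was 0.208 on the earlier day and 0.521 on the later. The biological coefficient of variation, the spread between replicates beyond counting error, was 20.7% within Juvenile 5d and 43.9% within Juvenile 6d, the highest of the 6 days. Most of this spread lay between replicate 1 and the others. A typical transcript differed by 0.70 (log2) between replicates 1 and 2 and by 0.86 between replicates 1 and 3, but by 0.29 between replicates 2 and 3, against 0.23 to 0.26 between libraries of Juvenile 5d. A range of at least 4-fold was seen for 378 transcripts (3.57%) at Juvenile 5d and for 1561 (14.8%) at Juvenile 6d. Replicate 1 stood apart in 970 of the 1561, replicate 3 in 423 and replicate 2 in 168. Apart from the coefficient of variation, which came from counts scaled between libraries, these values use TPM without further scaling. Replicate 1 was the lowest of the 6 libraries in 47.7% and the highest in 10.6% of the tested transcripts above a mean of 1 TPM. A shift shared by many transcripts may thus enter the SDs, differences and ranges, and its share was not tested.

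Juvenile 6d replicate 1 was more like the libraries of another labelled day than those of its own. Its median r was 0.931 with the Juvenile 2d libraries, 0.917 with Juvenile 3d, 0.901 with Juvenile 5d and 0.873 with the other libraries of Juvenile 6d. It lay at least 4-fold below both other replicates in 413 transcripts and at least 4-fold above both in 98. In 419 of these 511 transcripts (82.0%) it was closer to the Juvenile 2d mean than the mean of replicates 2 and 3 was, against 70.1% for Juvenile 3d, 51.1% for Juvenile 5d, 44.4% for Juvenile 4d and 7.05% for Juvenile 7d. Replicates 2 and 3 had their highest r with libraries of Juvenile 7d. For replicate 2 this was 0.930, with Juvenile 7d replicate 3, and for replicate 3 the r with the 3 Juvenile 7d libraries was 0.913 to 0.946. Juvenile 7d replicate 3 had the lowest count total of the 18 libraries, 1250604. Its r was 0.880 and 0.873 with the other Juvenile 7d libraries, which had 0.968 between them. The label of Juvenile 6d replicate 1 was kept, and results are given with and without this library.

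**Figure D1:**
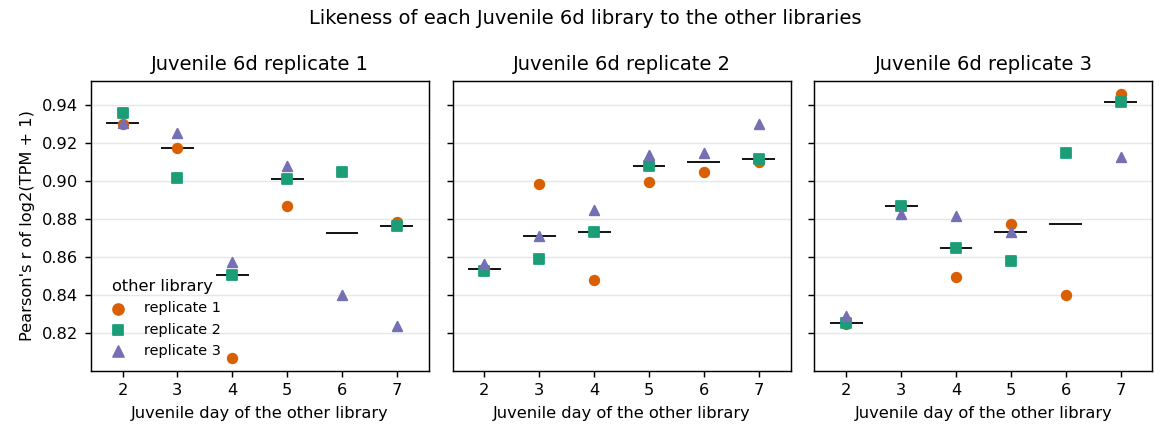
Pearson's r of log2(TPM + 1) over 10580 transcripts (vertical axis) between each Juvenile 6d library and every other library, by the juvenile day of the other library (horizontal axis), with black lines at the median for a day. Juvenile 6d replicate 1 has its highest values with Juvenile 2d (0.930 to 0.936), while replicate 3 has 0.913 to 0.946 with Juvenile 7d.

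With all 6 libraries, 10 transcripts of 9805 tested (0.102%) differed between the days in edgeR's quasi-likelihood test at a Benjamini-Hochberg adjusted p of up to 0.05. Of these, 3 were higher (0.0306%) and 7 lower (0.0714%) at Juvenile 6d. The median log2 fold change over all tested transcripts was 0.05, and 1650 transcripts had an unadjusted p under 0.05. None of the 10 is among the 113 listed transcripts, and the sources used here give them no name. The same design gave 3006 to 4630 calls for the 3 steps between successive days from Juvenile 2d to 5d, which share libraries with each other and with this step. The biological coefficient of variation was 16.3% to 23% in those fits and 40.3% here. Few calls and a wide spread were not particular to this step: for Juvenile 7d against 6d, which shares the Juvenile 6d libraries, edgeR called 0 of 9768 transcripts, with 186 at an unadjusted p under 0.05 and a coefficient of 47.3%. Juvenile 7d has an outlying library of its own. Its replicate 3 stood apart in 709 of the 945 transcripts that ranged over at least 4-fold on that day.

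The 7 transcripts that fell had their peak at Juvenile 5d. In each of the 7, every library of Juvenile 5d was above all 15 other libraries of the series, and the log2 fold changes ran from -5.85 to -1.71. Transcript g7973.t1 was measured at 1886, 1487 and 733 TPM at Juvenile 5d (replicates 1, 2 and 3) and at 18.6, 17.97 and 39.4 TPM at Juvenile 6d. All 3 libraries of Juvenile 6d, replicate 1 included, were far below the lowest of Juvenile 5d, and the log2 fold change was -5.85 ± 0.52 (SE, edgeR adjusted p = 0.0359). Outside Juvenile 5d its highest level in any library was 80.6 TPM. Transcript g9866.t1 showed the same course at lower levels, with 146, 85.2 and 64.9 TPM at Juvenile 5d and 1.41, 2.07 and 2.86 TPM at Juvenile 6d. It fell by 5.64 on the log2 scale (SE 0.39; edgeR adjusted p = 0.0145). Its estimated counts are not all whole, so part of its reads were divided with a similar transcript and its own level is less certain. Of the 7 transcripts that fell, 5 had whole counts in all 6 libraries. Whether g9866.t1 divides reads with another of the 7 was not tested, so the 7 may hold fewer separate signals.

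The 3 transcripts that rose had log2 fold changes of 2.06 to 3.17. Transcript g2418.t1 was measured at 100.5, 60.4 and 57.8 TPM at Juvenile 5d and at 432, 913 and 765 TPM at Juvenile 6d. The groups did not overlap, although replicate 1 was the lowest of the 3 at Juvenile 6d, and the log2 fold change was 3.17 ± 0.31 (SE, edgeR adjusted p = 0.0449). Transcript g5688.t1 stood at 5.22, 5.18 and 4.41 TPM at Juvenile 5d and at 27.2, 44.5 and 26.8 TPM at Juvenile 6d. Here replicate 1 lay between the others, and the log2 fold change was 2.66 ± 0.28 (SE, edgeR adjusted p = 0.0488). All 10 transcripts were also called without Juvenile 6d replicate 1 and by DESeq2. All 10 calls were lost without Juvenile 6d replicate 2, with 1087 transcripts then at an unadjusted p under 0.05, and 2, 1 and 2 transcripts were called without Juvenile 5d replicate 1, 2 and 3. With upper quartile scaling 6 were called, 1 higher and 5 lower.

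**Figure D2:**
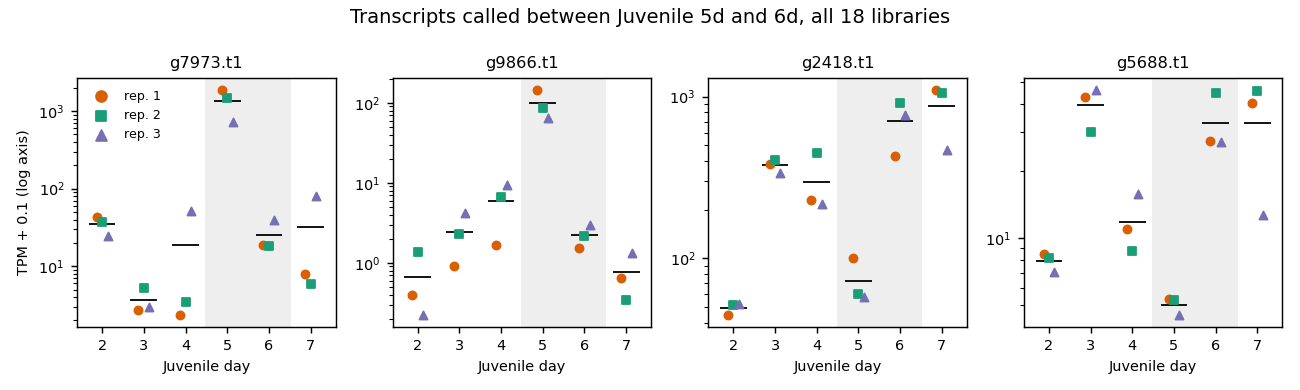
TPM + 0.1 on a log axis (vertical) by juvenile day (horizontal) for 2 transcripts that fell and 2 that rose between Juvenile 5d and 6d, with 1 point a library and black lines at the daily mean, and the shaded band marks Juvenile 5d and 6d. For g7973.t1 the 3 libraries of Juvenile 5d, from 733 to 1886 TPM, are above all others, whereas g2418.t1 at 57.8 to 100.5 TPM on Juvenile 5d is below every Juvenile 6d library.

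Leaving out Juvenile 6d replicate 1 moved the number of calls more than leaving out any other library. Without Juvenile 6d replicate 1, 2200 of 10022 transcripts (22.0%) were called, 1270 higher (12.7%) and 930 lower (9.28%) at Juvenile 6d. In 1228 of the 2200 (55.8%), replicate 1 lay on the other side of the Juvenile 5d mean from the direction called with replicates 2 and 3. The side was taken from log2(TPM + 1), without the scaling used for the calls. Replicate 1 was the lowest of the 6 libraries in 47.7% of the tested transcripts above a mean of 1 TPM. No share over all transcripts was counted, so the 55.8% has no background to be read against. Without replicate 3 of Juvenile 6d 44 transcripts were called. When all 18 libraries shared 1 estimate of the spread, 901 of 10436 (8.63%) were called, with 4.91% higher and 3.73% lower, and DESeq2 on the 6 libraries called 516 (5.26%), with 2.02% higher and 3.24% lower. A limma fit that weights the libraries gave replicate 1 of Juvenile 6d a weight of 0.138, against 0.667 to 2.57 for the other 5 libraries, and called 2760 (28.1%).

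**Figure D3:**
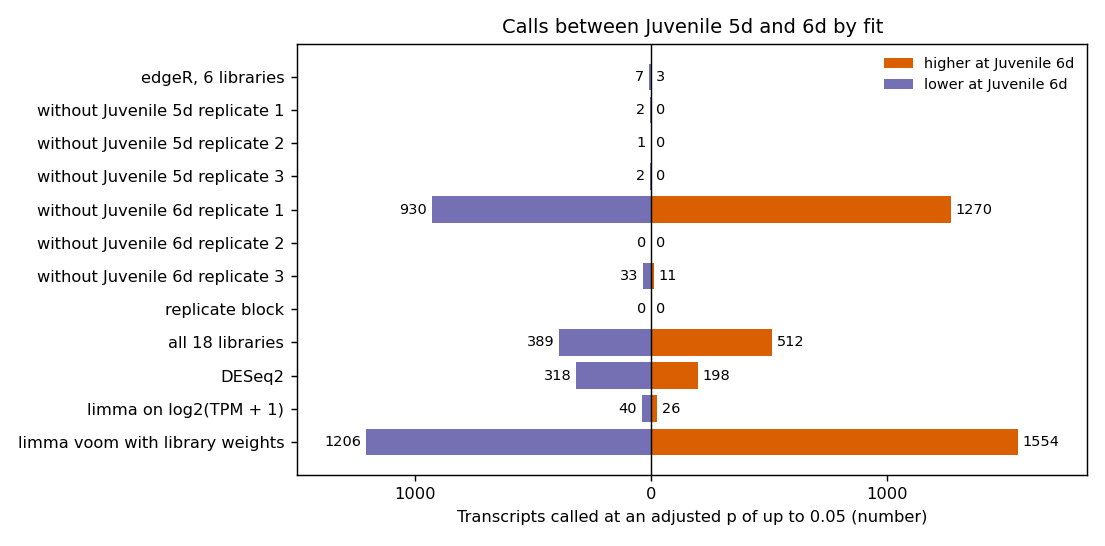
Number of transcripts called at an adjusted p of up to 0.05 (horizontal axis, to the right higher and to the left lower at Juvenile 6d) for the edgeR fit of 6 libraries and 11 alternatives (vertical axis). The bars reach 1270 and 930 without Juvenile 6d replicate 1, against 3 and 7 with all 6 libraries.

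Among the 113 listed transcripts, 103 passed the filter on low counts and 0 were called by edgeR with all 6 libraries. Of the 103, 15 had an unadjusted p under 0.05, and DESeq2 called 4 (HR4, the CAHS g4307.t1 and the GSTs g1463.t1 and g7671.t1), all lower at Juvenile 6d. Their median log2 fold change was 0.18, against 0.05 over all transcripts tested. In 9 members the 3 libraries of Juvenile 6d were all above those of Juvenile 5d and in 10 all below, of 113. Over the 12929 transcripts with a TPM above 0 in any of the 6 libraries these shares were 7.01% and 8.46%. Without Juvenile 6d replicate 1, 25 of 103 members were called, 8 higher and 17 lower, where 22.0% of all transcripts were called, 12.7% higher and 9.28% lower. The members named below for this reason were chosen after their values were seen. Log2 fold changes come from counts scaled by TMM, a scaling by the bulk of transcripts, and need not equal the ratio of the TPM values.

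The 12 transcripts of the molting pathway differed widely between the libraries of Juvenile 6d. All 12 had a wider SD there than at Juvenile 5d, as had 84.2% of the tested transcripts above a mean of 1 TPM. Of the 12, 7 spread over at least 4-fold at Juvenile 6d, against 13.3% of those transcripts. A wide range was not particular to that day, since 2 of the 12 spread as far at Juvenile 5d, against 2.19%. Replicate 1 was the lowest of the 6 libraries in 9 of 12, against 47.7% of those transcripts. None of the 12 was called with 6 libraries, and their median log2 fold change was 0.15. Without replicate 1, 2 were called higher and 1 lower, against 12.7% and 9.28% of all transcripts in that fit.

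Of the hormone receptors, the ecdysone receptor EcR is encoded by 2 transcripts here. EcR g12979.t1 was measured at 36.6, 34.7 and 26.7 TPM at Juvenile 5d and at 29.3, 71.9 and 106 TPM at Juvenile 6d. Replicates 2 and 3 were above all of Juvenile 5d and replicate 1 was within its range. Replicate 1 was above the 16.6 to 18.7 TPM of the Juvenile 2d libraries. The log2 fold change was 0.90 ± 0.34 (SE, edgeR adjusted p = 0.264), and 1.17 ± 0.21 (adjusted p = 0.0174) without replicate 1. This EcR was also called in the fit of all 18 libraries (adjusted p = 0.0287). EcR g8354.t1 did not follow it, with 86.7, 74.1 and 91.2 TPM at Juvenile 5d and 12.9, 113 and 47.3 TPM at Juvenile 6d, where replicate 2 was above and the others below the Juvenile 5d libraries (log2 fold change -0.72 ± 0.61, SE, edgeR adjusted p = 0.591). Here too replicate 1 was above the Juvenile 2d libraries, at 6.21 to 6.68 TPM. USP/RXR, the partner of EcR, has 2 isoforms between which reads were divided. Isoform g11953.t1 stood at 35.04, 45.8 and 40.1 TPM and then at 20.5, 59.9 and 81.6 TPM, with replicate 1 below and replicates 2 and 3 above Juvenile 5d. Isoform g11953.t2 stood at 22.9, 10.6 and 9.89 TPM and then at 5.02, 26.1 and 20.3 TPM, again with replicate 1 the lowest of 6.

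The early genes of the arthropod cascade are transcription factors that the bound receptor switches on directly. E74, an ETS-domain factor, had 19.6, 26.7 and 25.4 TPM at Juvenile 5d and 6.06, 31.7 and 16.1 TPM at Juvenile 6d. E75, a nuclear receptor, had 26.6, 24.0 and 19.8 TPM and then 8.20, 15.5 and 25.4 TPM. In both, replicate 1 of Juvenile 6d was the lowest library and the days overlapped, with log2 fold changes of -0.59 ± 0.47 for E74 and -0.68 ± 0.29 for E75 (SE). The nuclear receptor E78 varied at both days, with 21.5, 2.62 and 24.7 TPM at Juvenile 5d and 9.54, 2.16 and 56.8 TPM at Juvenile 6d. Replicate 2 was the lowest library of each day.

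Among the nuclear receptors that act later in the insect cascade, HR3 had the widest range of the 12. It was measured at 58.0, 20.8 and 127 TPM at Juvenile 5d and at 3.41, 9.76 and 254 TPM at Juvenile 6d, a 74.5-fold range between libraries of the latter. The log2 fold change was 0.07 ± 1.41 (SE). HR4 was the only member whose days did not overlap, with 15.5, 11.8 and 17.4 TPM at Juvenile 5d and 3.78, 9.36 and 10.1 TPM at Juvenile 6d. Replicate 1 of Juvenile 6d was above the 0.114 to 0.710 TPM of the Juvenile 2d libraries. The log2 fold change of HR4 was -1.09 ± 0.27 (SE, edgeR adjusted p = 0.155), and -0.88 ± 0.19 (adjusted p = 0.0278) without replicate 1. DESeq2 called it lower with all 6 libraries (adjusted p = 0.0263). In bFtz-F1, which in flies makes tissues competent for the next hormone pulse, 1 library was high: the levels were 1.86, 4.77 and 2.79 TPM at Juvenile 5d and 1.09, 2.84 and 28.5 TPM at Juvenile 6d (log2 fold change 1.47 ± 1.05, SE, edgeR adjusted p = 0.527).

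Enzymes stand at both ends of the hormone's life. CYP18A1, which inactivates ecdysteroids in insects, was measured at 84.1, 39.3 and 44.9 TPM at Juvenile 5d and at 11.99, 419 and 346 TPM at Juvenile 6d. Replicates 2 and 3 were at least 4-fold above every library of Juvenile 5d, whereas replicate 1 was below them all and within the 7.36 to 17.8 TPM of the Juvenile 2d libraries. The log2 fold change was 1.98 ± 0.99 (SE, edgeR adjusted p = 0.365) with all 6 libraries and 2.53 ± 0.35 (adjusted p = 0.00989) without replicate 1. The enzyme sad, a late step of ecdysone synthesis in insects, had 21.2, 16.4 and 26.9 TPM at Juvenile 5d and 16.6, 21.8 and 51.9 TPM at Juvenile 6d. Replicate 3 alone was above the Juvenile 5d range (log2 fold change 0.33 ± 0.36, SE, edgeR adjusted p = 0.693).

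**Figure D4:**
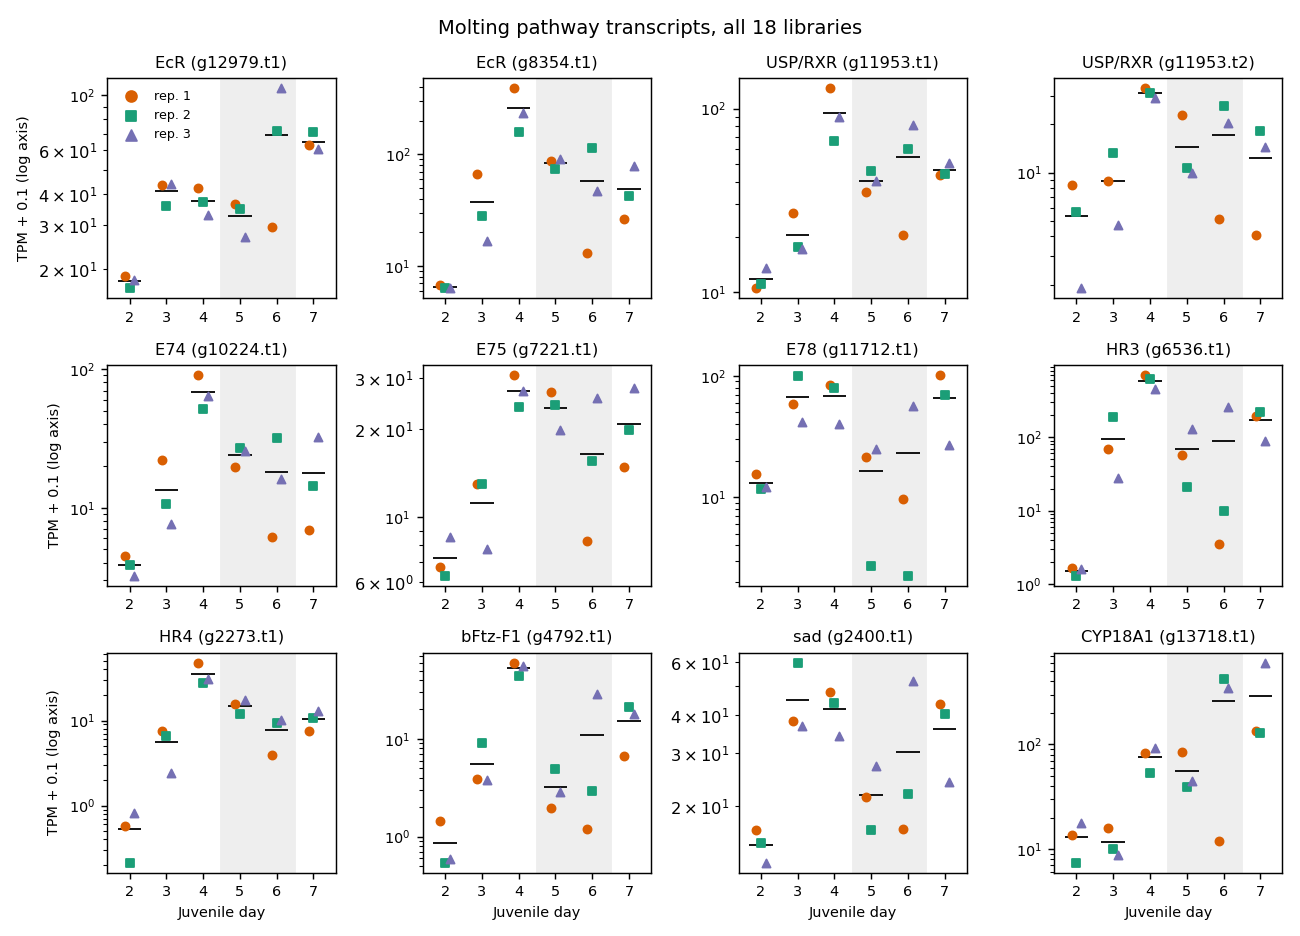
TPM + 0.1 on log axes (vertical) by juvenile day (horizontal) for the 12 molting pathway transcripts, with 1 point a library and black lines at the daily mean, and the shaded band marks Juvenile 5d and 6d. CYP18A1 at Juvenile 6d splits into replicate 1 at 11.99 TPM and replicates 2 and 3 at 419 and 346 TPM.

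The 8 HOX and related homeobox transcripts come from genes that pattern the body axis. In 7 of the 8, Juvenile 6d replicate 1 was the lowest of the 6 libraries. This was so for 47.7% of the tested transcripts above a mean of 1 TPM. The median log2 fold change of the 8 was 0.04. Hox10_abdb-1 (g6414.t1), the most abundant, had 27.6, 18.7 and 18.2 TPM at Juvenile 5d and 15.4, 24.7 and 31.9 TPM at Juvenile 6d, with overlapping days (log2 fold change 0.04 ± 0.23, SE). Hox4_disformed (g2153.t1), which specifies head segments in insects, varied most at Juvenile 6d, with 13.1, 14.7 and 15.04 TPM and then 7.57, 35.8 and 47.0 TPM. Replicate 1 was below and replicates 2 and 3 above all of Juvenile 5d, and the edgeR adjusted p was 0.411 with 6 libraries and 0.00830 without replicate 1 (log2 fold change 1.26 ± 0.16, SE). Without replicate 1, 2 of the 8 were called, both higher, where 12.7% of all transcripts were called higher. The other of the 2 was the segment polarity gene engrailed (g10006.t1), at 13.6, 17.5 and 10.7 TPM and then 10.8, 37.9 and 34.8 TPM (log2 fold change 1.13 ± 0.28, SE, edgeR adjusted p = 0.0419).

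Catalase, which breaks down hydrogen peroxide, has 3 transcripts, of which 0 were called with 6 libraries. In 2 of the 3 every library of Juvenile 6d was above those of Juvenile 5d, as in 7.01% of all transcripts. The most abundant, g4317.t1, had 43.0, 64.4 and 68.7 TPM at Juvenile 5d and 124, 103 and 78.4 TPM at Juvenile 6d (log2 fold change 0.79 ± 0.41, SE, edgeR adjusted p = 0.378). Catalase g3478.t1 was the other, and it was called higher in the fit of all 18 libraries (adjusted p = 0.0141) but not with 6. Catalase g5941.t1 varied most, from 5.52, 1.88 and 8.28 TPM to 0.554, 18.5 and 40.2 TPM. Replicate 1 was the lowest of the 6 libraries there and the others the highest, and the edgeR adjusted p was 0.510 with 6 libraries and 0.0481 without replicate 1.

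Glutathione S-transferases (GST), which conjugate glutathione to reactive compounds, numbered 21 transcripts, of which 20 were tested and 0 called. Their median log2 fold change was -0.09, and 18 of 21 were more variable at Juvenile 6d, close to the 84.2% of the tested transcripts above a mean of 1 TPM. The most abundant, g4017.t1, had 1276, 1584 and 1516 TPM at Juvenile 5d and 2762, 2860 and 2000 TPM at Juvenile 6d. The days did not overlap, but the log2 fold change of 0.79 ± 0.36 (SE) had an edgeR adjusted p of 0.323. GST g4663.t1 varied most, with 188, 167 and 264 TPM and then 597, 79.2 and 17.8 TPM, so that replicate 1 was above and the other replicates below all of Juvenile 5d. Without replicate 1, 6 of 20 GSTs were called, where 22.0% of all transcripts were, and all 6 were lower at Juvenile 6d, where 9.28% of all transcripts were. The most abundant of these, g2973.t1, had 1129, 1307 and 1356 TPM at Juvenile 5d and 1114, 383 and 350 TPM at Juvenile 6d (log2 fold change without replicate 1 -2.04 ± 0.22, SE, edgeR adjusted p = 0.00642). In GST g7671.t1 replicate 1 sided with the others: the levels were 55.3, 59.3 and 58.1 TPM at Juvenile 5d and 30.9, 31.98 and 35.04 TPM at Juvenile 6d, and it was called with all 18 libraries (adjusted p = 0.0107) and by DESeq2 (adjusted p = 0.0245).

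Superoxide dismutases (SOD), which turn superoxide into hydrogen peroxide, numbered 17 transcripts, and in 10 of them Juvenile 6d replicate 1 was the highest of the 6 libraries, against 10.6% of all transcripts tested. The median log2 fold change was 0.07, and 16 of 17 were more variable at Juvenile 6d, against 84.2%. The most abundant, g457.t1, had 642, 736 and 724 TPM at Juvenile 5d and 1294, 915 and 703 TPM at Juvenile 6d (log2 fold change 0.51 ± 0.41, SE, edgeR adjusted p = 0.579). SOD g4645.t1 varied most and was nearly silent in 1 library, with 41.6, 63.9 and 60.0 TPM and then 12.2, 80.2 and 0.155 TPM. Replicates 1 and 3 were below all of Juvenile 5d and replicate 2 above. Without replicate 1, 4 of 17 SODs were called, near the 22.0% of all transcripts, and all 4 were lower (9.28% of all transcripts). Of these, SOD g11595.t1 fell from 738, 517 and 392 TPM to 150 and 173 TPM in replicates 2 and 3, and stood at 302 TPM in replicate 1 (log2 fold change without it -2.01 ± 0.29, SE, edgeR adjusted p = 0.0105). Its counts are not all whole, and 6 of the 17 SODs share reads with similar transcripts in this way.

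Thioredoxins, small proteins that reduce disulphide bonds, numbered 14 transcripts with a median log2 fold change of 0.19. Thioredoxin g11519.t1 was both the most abundant and the most variable, with 584, 589 and 541 TPM at Juvenile 5d and 1319, 311 and 163 TPM at Juvenile 6d. Replicate 1 lay above and the others below all of Juvenile 5d, at a level near the 1312 to 1468 TPM of the Juvenile 2d libraries. The log2 fold change was 0.27 ± 0.85 (SE, edgeR adjusted p = 0.911), and -1.50 ± 0.32 (adjusted p = 0.0268) without replicate 1. Of the 14, 2 were called higher and 3 lower without it, against 12.7% and 9.28% of all transcripts. Thioredoxin g6863.t1 was one of the former, at 58.9, 51.3 and 66.8 TPM and then 51.8, 161 and 235 TPM (log2 fold change without replicate 1 1.49 ± 0.19, SE, edgeR adjusted p = 0.00836).

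The CAHS transcripts, which encode cytosolic proteins tied to desiccation tolerance, numbered 15, of which 12 were tested and 0 called, with a median log2 fold change of 0.24. In 4 of the 15 all Juvenile 6d libraries were above those of Juvenile 5d, and in 1 all were below, against 7.01% and 8.46% of all transcripts. Of the 4, g12391.t1, did not exceed 1.15 TPM in any of the 6 libraries and was not tested. The most abundant, g3884.t1, was one of the 4, with 3732, 6551 and 6775 TPM at Juvenile 5d and 10432, 16158 and 11494 TPM at Juvenile 6d. Its log2 fold change was 1.05 ± 0.39 (SE, edgeR adjusted p = 0.262), and 1.00 ± 0.36 (adjusted p = 0.0995) without replicate 1. The member that was lower in every library, g4307.t1, had 1663, 1706 and 1302 TPM at Juvenile 5d and 271, 839 and 848 TPM at Juvenile 6d. It was called by DESeq2 with 6 libraries (adjusted p = 0.00342) and by edgeR without replicate 1 (log2 fold change -1.15 ± 0.21, SE, adjusted p = 0.0178).

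CAHS g612.t1 varied more at Juvenile 6d than any other member of its family. It was measured at 224, 564 and 1552 TPM at Juvenile 5d and at 4167, 76.1 and 21.6 TPM at Juvenile 6d. Replicate 1 was the highest of the 6 libraries, close to the 4819 to 5318 TPM of the Juvenile 2d libraries, and replicates 2 and 3 were the lowest. The direction therefore turned with the library: the log2 fold change was 1.17 ± 1.84 (SE, edgeR adjusted p = 0.798) with all 6 libraries and -4.23 ± 1.11 (adjusted p = 0.0475) without replicate 1. The CAHS transcripts summed to 13259, 19980 and 24957 TPM at Juvenile 5d and to 37628, 24670 and 18772 TPM at Juvenile 6d, so that the days overlapped.

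The SAHS transcripts, which encode secreted proteins of the fatty acid-binding fold, numbered 13, of which 10 were tested and 0 called, with a median log2 fold change of 0.33. Replicate 1 was the highest of the 6 libraries in 6 of the 12 that averaged more than 1 TPM. Among the tested transcripts above that mean the share was 10.6%. The most abundant, g1671.t1, had 7248, 9620 and 11951 TPM at Juvenile 5d and 23370, 16176 and 9094 TPM at Juvenile 6d, with overlapping days (log2 fold change 0.81 ± 0.55, SE, edgeR adjusted p = 0.503). In this transcript replicate 1 was above the 15439 to 15899 TPM of the Juvenile 2d libraries. The most variable member, g1680.t1, was near 0 on both days, at 0, 1.79 and 0 TPM and then 7.05, 0 and 4.37 TPM, and was not tested. Without replicate 1, 1 of the 10 tested was called lower and 0 higher, against 9.28% and 12.7% of all transcripts. This was SAHS g1122.t1, at 787, 973 and 1063 TPM and then 1030, 427 and 183 TPM (log2 fold change -1.85 ± 0.45, SE, edgeR adjusted p = 0.0383).

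MAHS (g6834.t1), a mitochondrial heat-soluble protein, had 281, 220 and 227 TPM at Juvenile 5d and 191, 1098 and 1012 TPM at Juvenile 6d. Replicates 2 and 3 were far above Juvenile 5d and replicate 1 just below it. Replicate 1 was above the 107 to 117 TPM of the Juvenile 2d libraries. The log2 fold change was 1.45 ± 0.51 (SE, edgeR adjusted p = 0.245), and 1.85 ± 0.18 (adjusted p = 0.00639) without replicate 1. LEAM (g2978.t1), the other mitochondrial protein, had 334, 345 and 326 TPM and then 426, 300 and 257 TPM, with replicate 1 above and replicates 2 and 3 below Juvenile 5d (log2 fold change -0.03 ± 0.39, SE, edgeR adjusted p = 0.984). Dsup (g4591.t1), which binds nucleosomes and protects DNA, had 101.5, 77.7 and 87.3 TPM and then 51.1, 104 and 115 TPM. Replicate 1 was close to the 49.2 to 59.1 TPM of Juvenile 2d, and replicates 2 and 3 were above the Juvenile 5d libraries in TPM. The log2 fold change from scaled counts was -0.12 ± 0.24 (SE, edgeR adjusted p = 0.848), and 0.03 ± 0.16 (adjusted p = 0.901) without replicate 1.

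**Figure D5:**
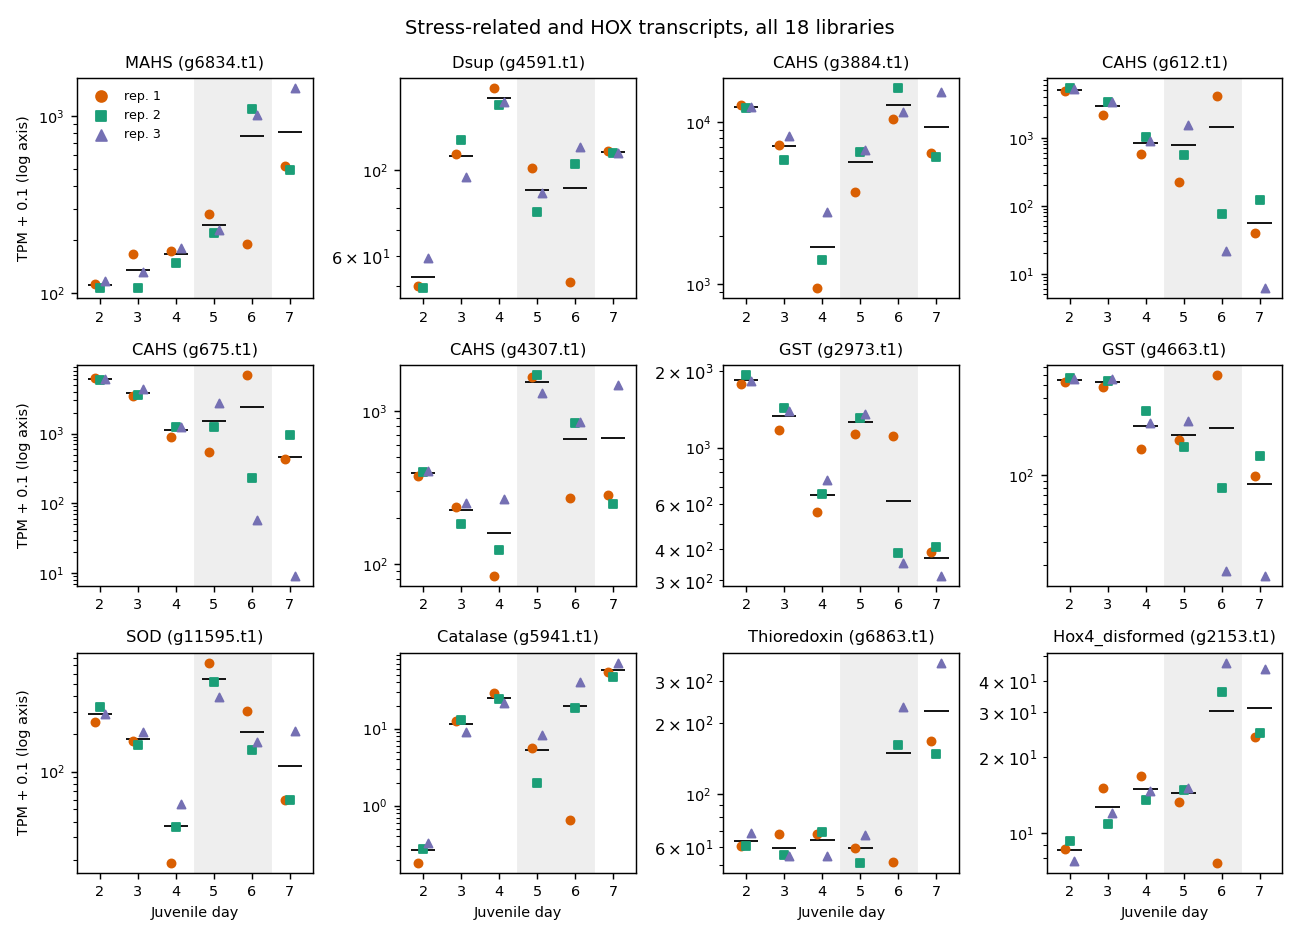
TPM + 0.1 on log axes (vertical) by juvenile day (horizontal) for 12 stress-related and HOX transcripts, several chosen after their values were seen, with 1 point a library and black lines at the daily mean, and the shaded band marks Juvenile 5d and 6d. For CAHS g612.t1 replicate 1 is at 4167 TPM and replicates 2 and 3 at 76.1 and 21.6 TPM, and for MAHS the order is the opposite, at 191 against 1098 and 1012 TPM.

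Argonautes, the proteins that carry small RNAs to their targets, numbered 7 transcripts, of which 4 were tested and 0 called with or without replicate 1, with a median log2 fold change of -0.06. The most abundant, argonaute-1 (g11139.t1), had 52.8, 52.6 and 46.9 TPM at Juvenile 5d and 40.4, 60.2 and 44.6 TPM at Juvenile 6d, with overlapping days and a log2 fold change of -0.14 ± 0.25 (SE, edgeR adjusted p = 0.830). The most variable, argonaute-2 (g4855.t1), was at or below 1.04 TPM in all 6 libraries and was not tested.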

How the data were processed

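RNA-Seq of whole juveniles was analysed for Juvenile 5d and 6d (n = 3 each). The authors quantified single-end reads with kallisto (0.42.4 in the methods; the submitters' processing notes also list 0.44.0) on the predicted coding sequences, with bias correction, and deposited estimated counts without normalization and TPM, as library files and as a matrix with the same values. In the 6 libraries 92.1% to 92.5% of the 14532 transcripts have a whole estimated count, those with a count of 0 included. The rest show reads divided between similar transcripts.

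R 4.3.3 and its package edgeR 4.0.16 were used to test the rounded counts of the 6 libraries (TMM scaling, quasi-likelihood F test, low counts removed by filterByExpr with a minimum of 10), because earlier results had shown a wider spread at Juvenile 6d. Dividing the absolute log2 fold change by the root of F gave the SE. The Benjamini-Hochberg adjustment ran over all transcripts tested. Groups of 3 and 3 libraries cannot give an exact permutation p below 0.1. Alternatives were limma 3.58.1, DESeq2 1.42.0, other normalizations and filters, thinning to equal totals, other library sets, a replicate block and leaving out each library. The scripts were tested on simulated data. Spread was described on log2(TPM + 1), without further scaling between libraries, for transcripts above a mean of 1 TPM.

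The members and lists were chosen with earlier results of these data known. Named were all 12 molting transcripts, the most abundant and the most variable (at Juvenile 6d) member of each other list, and at most 2 unnamed transcripts that rose and 2 that fell. The reference table of gene names matched no transcript identifier, so no positions or sequences are given. Figures were drawn with matplotlib 3.10.9 in Python 3.11.15.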

Additional observations from a re-analysis of the deposited data

How the results depend on the processing

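The calls rest on 6 libraries whose depth and spread limit them, and the cause of the differences between fits was not tested. Against 10 calls (3 higher, 7 lower) with the 6 libraries, 1337 (792 and 545) were called with 15 libraries, 901 (512 and 389) with 18, 516 (198 and 318) by DESeq2, 63 (27 and 36) and 66 (26 and 40) by limma on log2(TPM + 0.1) and log2(TPM + 1), 2760 (1554 and 1206) by limma voom with library weights and 6 with upper quartile scaling. Just 1 was called higher with upper quartile scaling, without a filter and after thinning to equal totals. With a fit added after seeing the data, without Juvenile 6d replicate 1, 2809 (1422 and 1387) were called in 17 libraries and 2701 (1372 and 1329) by DESeq2. Leaving out 1 library at a time gave 0 to 2200 calls, 0 to 1270 higher and 0 to 930 lower.

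The labels do not say whether replicate numbers pair the libraries. Deviations from the daily mean correlated at -0.23, 0.12 and -0.08 for same-numbered libraries and at -0.23 to 0.32 for the others. With 3 libraries a day, 1 of them outlying at Juvenile 6d, these values cannot decide it. With the replicate block edgeR called 0 transcripts, 0 higher and 0 lower, with 1066 at an unadjusted p under 0.05.

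Of the listed transcripts, 8 (4 higher, 4 lower) were called with 15 libraries, 4 (2 and 2) of 103 with 18 and 4 (0 and 4) of 103 by DESeq2. With library weights 27 (10 and 17) were called. Without Juvenile 6d replicate 1, 31 (9 and 22) were called in 17 libraries and 36 (12 and 24) by DESeq2. Over all transcripts tested the shares were 8.63% with 18 libraries, 5.26% by DESeq2 and 28.1% with library weights. For 15 and 17 libraries, and for DESeq2 without that library, no share was taken. Leaving out 1 library gave 0 to 25, with 0 to 8 higher and 0 to 17 lower. The 25, of 103, were called without Juvenile 6d replicate 1, where 22.0% of all transcripts were called.

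The lowest r between Juvenile 6d libraries was 0.799 with a pseudocount of 0.1, 0.727 above 10 TPM and 0.904 over all transcripts, and 0.840 to 0.915 with a library left out. The median r of Juvenile 6d replicate 1 with Juvenile 2d was 0.886 with a pseudocount of 0.1, still above the 0.835 with its own day. With a library of Juvenile 6d left out, the share of transcripts more variable at Juvenile 6d was 51.0% to 79.8%. The ratio of median SDs was 0.998 to 2.94, the lowest of both without replicate 1. Here an SD of 2 libraries, typically smaller, is set against an SD of 3, so these values understate the spread at Juvenile 6d. Replicates 2 and 3 differed at least 4-fold in 4.63% of transcripts, against 1.77% to 2.17% between libraries of Juvenile 5d (r 0.915 against 0.960 to 0.966). Transcripts whose days do not overlap numbered 906 higher and 1094 lower with all 6 libraries. With 1 library left out they numbered 1113 to 4617 higher and 1341 to 1867 lower. Leaving out a library cannot lower these numbers, so the rise says nothing about how firm they are.

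The direction of 14 of the 28 named transcripts not called turned in at least 1 of 20 alternatives. In the order limma with pseudocounts 0.1 and 1, library weights, replicate block, the log2 fold change was -0.0789, -0.0415, -1.27 and -0.12 for E78 (g11712.t1), -1.38, -1.25, -1.51 and -1.41 for HR3 (g6536.t1), -1.10, -1.07, -1.79 and -1.21 for GST g4663.t1, -0.49, -0.49, -1.16 and -0.57 for thioredoxin g11519.t1, and -1.61, -1.59, -3.02 and -2.73 for CAHS g612.t1. Without Juvenile 6d replicate 1, in 17 libraries and by DESeq2, it was -2.34 and -2.33 for GST g4663.t1, -0.0768 and -0.0641 for SOD g457.t1, -1.54 and -1.53 for thioredoxin g11519.t1 and -4.26 in both for CAHS g612.t1. It was -0.0032 for HR3 and -0.0037 for Hox10_abdb-1 without a filter, and for Dsup 0.018 with library weights and 0.0074 by DESeq2 without that library.

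With each library left out in turn, it ran from -0.73 to 1.98 for bFtz-F1 (g4792.t1), -1.22 to 0.78 for E78, -3.43 to 0.90 for HR3, -0.12 to 0.53 for sad (g2400.t1), -0.0634 to 0.53 and -0.40 to 0.48 for USP/RXR (g11953.t1, g11953.t2), -0.0754 to 0.18 for Hox10_abdb-1 (g6414.t1), -2.31 to 0.98 for GST g4663.t1, -0.0395 to 0.79 for SOD g457.t1, -1.50 to 0.75 for thioredoxin g11519.t1, -0.27 to 0.0174 for argonaute-1 (g11139.t1), -4.23 to 2.15 for CAHS g612.t1, -0.23 to 0.0328 for Dsup (g4591.t1) and -0.53 to 0.22 for LEAM (g2978.t1).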
